A study of Mus musculus with 9 samples.

Results

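The genes described here are the expressed solute carriers, the SLC superfamily of membrane proteins through which cells take up and move nutrients, ions and metabolites. A gene was a member where its symbol starts with Slc followed by a digit and its mean over the 9 libraries was at least 1 CPM, the read count scaled to the usual library size. The rule gave 178 of the 380 Slc genes and of the 25160 genes in the table, so the members were chosen by their level over all libraries and not by a difference between groups. The members nearest to the threshold from above were Slc23a1 at 1.06, Slc26a1 at 1.24 and Slc5a10 at 1.35 CPM. Just below it were Slc8a1 at 0.974, Slc9b1 at 0.933 and Slc7a11, the cystine carrier, at 0.903 CPM. All 178 members passed the expression filter of the test. Symbols starting with Slc are not all carriers: 4 members (Slc9a3r1, Slc2a4rg-ps, Slc4a1ap and Slc7a6os) are genes named after a carrier and were kept as a group of their own.

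The libraries came from CD4+ T cells of C57BL/6 mouse spleen, sorted as naive cells and cultured on plates coated with 1 µg/ml of antibody against CD3e, the stimulus that all 3 groups shared. Wild-type cells had 19 µg/ml of isotype control antibody in the coat as well (n = 3 libraries), or 19 µg/ml of antibody against CD40L, the ligand of CD40 (n = 3). The remaining group, labelled KO, had the isotype antibody (n = 3). Its genotype label reads only cre, and the series design text describes T cell-specific CD40L-deficient cells. The sources used here do not give the deleted part of the gene, the Cre driver, the age of the mice or the time in culture. Separate animals or cultures are not stated for the libraries of a group, so the spread behind each p-value may be technical.

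Resting naive T cells take up little, and on stimulation through the T cell receptor they raise uptake of glucose, amino acids, nucleosides, phosphate and iron as they grow. Plasma membrane carriers bring substrates in, some of them with a partner subunit such as Slc3a2, which pairs with the amino acid carrier Slc7a5. Other carriers sit in endosomes, lysosomes, the Golgi apparatus or, for most of the SLC25 family, the inner mitochondrial membrane, where they exchange ATP, phosphate, acylcarnitine and amino acids.

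Library totals ranged from 5316482 to 15565711 counts. The smallest library, wild-type anti-CD40L replicate 3, stood apart: it had counts for 11673 genes against 14290 to 17428 in the other libraries, and it lay at 86.96 on a first principal component on which the others ranged from -19.1 to 10.22. Cd40lg, which encodes CD40L, was at 161 ± 24.5 CPM (SD, n = 3) in wild-type isotype, 135 ± 26.8 in anti-CD40L and 144 ± 7.13 in KO libraries (KO minus wild type, log2 fold change -0.17, SE 0.13, edgeR adjusted p = 0.935). Reads outside a deleted part would still be counted, so this level does not check the KO label. The 8 CD4+ T cell markers summed to between 4103 and 4699 CPM in every library, and none was called different. Summed markers of B cells were between 7.69 and 21.5 CPM on isotype in wild type, 1.72 and 11.8 on anti-CD40L and 6.81 and 15.6 in KO libraries. Those of myeloid cells were between 5.39 and 6.81, 2.6 and 6.11, and 3.95 and 15.8 CPM, with Csf1r and Adgre1 at 3 counts or fewer in every library. Markers of CD8 T cells, dendritic cells, NK cells, erythroid cells and platelets summed to at most 11.9 CPM each. The myeloid gene Itgam was lower on anti-CD40L, and the part of other cell types in the results was not tested. In bulk RNA, fewer cells of a type and less RNA per cell cannot be told apart.

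In wild-type cells on isotype antibody the highest levels were those of 2 mitochondrial carriers, an amino acid carrier and a member of the anion exchanger family. Levels between genes were compared as CPM per kilobase of transcript, which was possible for 165 members. Slc25a5, an ADP/ATP exchanger of the inner mitochondrial membrane, was at 603 ± 19.6 CPM per kilobase (SD, n = 3), followed by the mitochondrial phosphate carrier Slc25a3 at 286 ± 6.71. Slc1a5, the neutral amino acid carrier that takes up glutamine, came next at 236 ± 16.9 CPM per kilobase and overlapped within its SD with Slc26a10, a member of the anion exchanger family, at 222 ± 9.01. Slc3a2 at 144 ± 10.3 and the nucleoside carrier Slc29a1 at 143 ± 39.5 CPM per kilobase did not differ beyond their spread.

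The amino acid carriers Slc38a1, a sodium-coupled glutamine carrier, and Slc7a5, the large neutral amino acid exchanger, followed at 121 ± 5.03 and 71.5 ± 1.93 CPM per kilobase. Among members with a transcript length, the highest of each other group was the folate carrier Slc19a1 among vitamin and lipid carriers (70.4 ± 1.66 CPM per kilobase; Slc44a2, of higher CPM, had no length), Slc35a4 in the nucleotide sugar carrier family (62.7 ± 0.754), the lactate and pyruvate carrier Slc16a1 among carboxylate carriers (40.6 ± 4.03), Slc50a1 among sugar carriers (37.4 ± 2.48) and Slc10a3 among carriers of other organic compounds (36.8 ± 1.77). The level of Slc25a5 carries a caution, since 46.6% of the 50-base stretches of its transcript also occur in other genes, foremost the pseudogenes Gm5560 and Gm5529. Over 10% of such stretches were shared with other genes, on either strand, in 26 of the 165 members compared. Among them were Slc35a4 (17.9%) and Slc10a3 (10.6%), and Slc20a1 (12.3%), Slc37a1 (12.8%) and Slc5a6 (20.4%), which are described below.

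**Figure D1:**
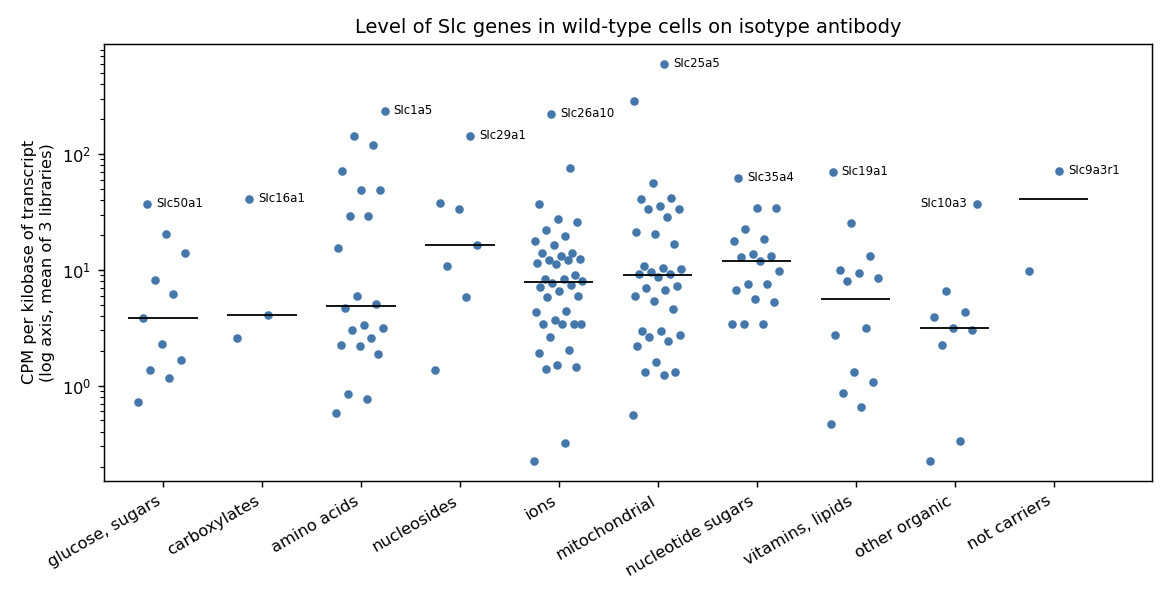
Level of the 165 members with a transcript length in wild-type cells on isotype antibody, as CPM per kilobase of transcript on a log axis, by substrate group. Each point is the mean of 3 libraries for 1 gene, the line is the group's median and the highest gene of each group is named; Slc25a5 lies at 603 and Slc25a3 at 286.

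Anti-CD40L in the coat went with lower levels of a small set of carriers in wild-type cells. Of the 178 members 15 passed the test at an adjusted p of 0.05 (edgeR's quasi-likelihood test, Benjamini-Hochberg adjustment over 11256 genes): 14 were lower and 1 was higher. That is 8.43% of members, close to the 9.37% of all genes tested that passed (2.91% higher and 6.46% lower), so the number of calls does not set the carriers apart. The median log2 fold change over the members was -0.06, beside -0.01 over all genes tested, and in 56 members (31.5%) the groups did not overlap, beside 32.6% of all genes. The summed level of all members was 10885 ± 226 CPM (SD, n = 3) on isotype and 10781 ± 182 on anti-CD40L, and these ranges overlapped. The called members were spread over the substrate groups: 3 of 7 nucleoside and nucleotide carriers, 4 of 46 ion carriers, 3 of 38 SLC25 carriers, 2 of 23 amino acid carriers, 2 of 15 vitamin and lipid carriers and 1 of 13 sugar carriers. None of the 4 carboxylate, 19 nucleotide sugar and 9 other organic carriers, and none of the 4 genes that are not carriers, passed.

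**Figure D2:**
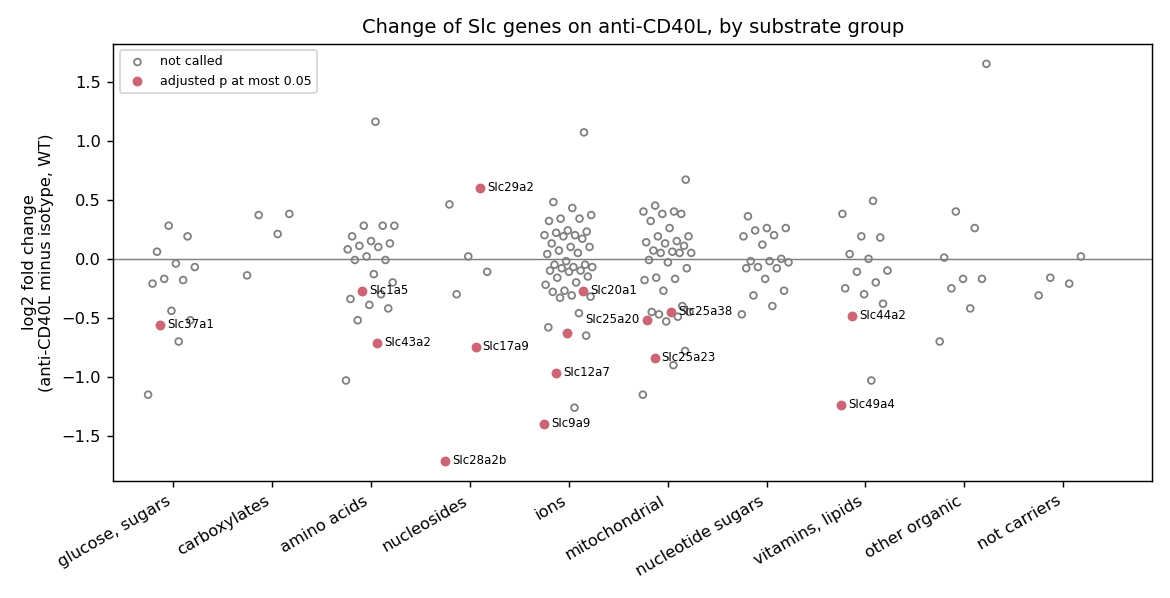
log2 fold change of each of the 178 members between wild-type cells on anti-CD40L and on isotype antibody, by substrate group. Filled points passed an adjusted p of 0.05, and all but 1 are named: 14 lie below 0, down to -1.71 for Slc28a2b, and 1 above it, Slc29a2 at 0.60.

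The nucleoside carriers held both the largest fall among the 178 members and the only higher value that passed the test. Slc28a2b belongs to the concentrative nucleoside carriers, which move nucleosides inward with sodium, and lies on chromosome 2 (122484941 to 122528040, GRCm38) beside its close relative Slc28a2. Both relatives were lower on anti-CD40L at an unadjusted p under 0.05 (edgeR), and a difference between their changes was not tested. The 250 bases upstream of both start sites are shown (RefSeq, GRCm38.p6, plus strand). The transcripts share much sequence and these stretches do not. A part of these stretches in the levels was not tested.
Slc28a2b, chr2:122484691-122484940: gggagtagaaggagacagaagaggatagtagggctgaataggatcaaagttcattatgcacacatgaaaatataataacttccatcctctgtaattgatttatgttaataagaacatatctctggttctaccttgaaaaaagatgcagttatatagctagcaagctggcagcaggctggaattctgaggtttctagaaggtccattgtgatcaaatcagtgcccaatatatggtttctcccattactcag
Slc28a2, chr2:122426185-122426434: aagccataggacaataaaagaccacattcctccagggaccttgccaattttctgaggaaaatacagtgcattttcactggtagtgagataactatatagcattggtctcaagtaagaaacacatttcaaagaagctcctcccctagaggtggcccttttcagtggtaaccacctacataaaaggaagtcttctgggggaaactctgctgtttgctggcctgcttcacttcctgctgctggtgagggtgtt
The longest run of bases common to both stretches was 8, and their GC content was 38.4% and 45.2%.

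Slc28a2b was at 154, 95.5 and 129 CPM on isotype in wild type, at 29.8, 47.2 and 39.2 CPM on anti-CD40L and at 142, 139 and 107 CPM in the libraries labelled KO. All 3 anti-CD40L libraries lay far below the other 6. The fall was 3.26-fold (log2 fold change -1.71, SE 0.19, adjusted p = 1.74e-04, edgeR). Slc28a2, a sodium-coupled purine nucleoside carrier, was at 62.5, 63.5 and 68.0 CPM on isotype and at 41.2, 53.1 and 64.2 CPM on anti-CD40L, where the groups overlapped (log2 fold change -0.30, adjusted p = 0.179). The counting could have split reads between these relatives, because 40.6% of the 50-base stretches of Slc28a2b also occur in Slc28a2.

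The equilibrative carriers let nucleosides pass in either direction without sodium. Slc29a2 was at 15.0, 16.4 and 14.3 CPM on isotype and at 22.1, 21.4 and 26.2 CPM on anti-CD40L. Its groups did not overlap, and it was the only member with a higher value that passed the threshold (1.51-fold, log2 fold change 0.60, SE 0.15, adjusted p = 0.0292). Slc29a1, the most abundant of the family, spread widely within groups, at 207, 367 and 323 CPM on isotype and 208, 315 and 311 CPM on anti-CD40L (log2 fold change -0.11, adjusted p = 0.759). Slc29a3, an intracellular relative, was at 196 and 200 CPM on average, and the purine base carrier Slc43a3 at 3.54 and 4.87 CPM (adjusted p = 0.896 and 0.42). Slc17a9, which loads nucleotides such as ATP into vesicles, was at 29.6, 21.9 and 22.9 CPM on isotype and 13.4, 16.0 and 14.7 CPM on anti-CD40L, with no overlap (log2 fold change -0.75, SE 0.16, adjusted p = 0.0123). The summed level of the 7 carriers was 730 ± 70.1 CPM on isotype and 612 ± 93.7 CPM on anti-CD40L.

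Among the 46 ion carriers the falls included Slc12a7, a potassium-chloride cotransporter, the endosomal sodium-proton exchanger Slc9a9 and the phosphate carrier Slc20a1. Slc12a7 (chromosome 13, 73733052 to 73816754) and Slc20a1 (chromosome 2, 129198773 to 129211615), together with the lysosomal carrier Slc49a4 (chromosome 16, 35694062 to 35769370), were those with an E-box among the 11 lower members that the RefSeq promoter table held. An E-box is the sequence CACGTG that Myc and related factors can bind, here searched in the 250 bases before each RefSeq start. These stretches are shown 5′ to 3′ with that motif in capitals.
Slc12a7, chr13:73763447-73763696, plus strand: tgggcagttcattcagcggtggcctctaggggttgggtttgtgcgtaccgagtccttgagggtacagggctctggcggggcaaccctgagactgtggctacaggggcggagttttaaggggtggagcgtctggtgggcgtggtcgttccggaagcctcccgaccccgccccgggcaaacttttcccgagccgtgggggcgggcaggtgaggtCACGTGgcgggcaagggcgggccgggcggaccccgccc
Slc20a1, chr2:129198523-129198772, plus strand: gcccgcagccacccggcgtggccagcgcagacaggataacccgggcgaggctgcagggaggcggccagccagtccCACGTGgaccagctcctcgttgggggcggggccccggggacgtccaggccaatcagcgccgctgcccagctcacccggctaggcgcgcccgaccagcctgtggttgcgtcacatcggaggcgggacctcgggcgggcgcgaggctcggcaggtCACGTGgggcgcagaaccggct
Slc49a4, chr16:35769371-35769620, minus strand: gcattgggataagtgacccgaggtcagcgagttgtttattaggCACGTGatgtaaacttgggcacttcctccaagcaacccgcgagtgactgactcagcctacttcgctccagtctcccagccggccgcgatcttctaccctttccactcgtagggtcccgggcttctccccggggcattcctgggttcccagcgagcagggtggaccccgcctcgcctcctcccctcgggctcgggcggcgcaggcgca
The motif, which reads the same on both strands, begins 38 bases before 1 of the annotated starts of Slc12a7, 207 before that of Slc49a4, and 175 and 22 before that of Slc20a1.

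Of the 16 start windows of members that were lower on anti-CD40L, 3 (18.8%) held CACGTG, beside 24 of 181 windows of all members (13.3%), 8.7% of the windows of genes tested and 6.02% of all 32851 windows. These shares are a description, and a match is not a binding site. Of the other motifs searched on both strands, FOXO (GTAAACA), cAMP response element (TGACGTCA), E2F (TTTCCCGC) and KLF (CCACACCC) matched 0 of the 16 windows, and ETS (CCGGAAGT) matched 1, that of Slc25a20.

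Slc12a7 was at 116, 95.3 and 92.8 CPM on isotype in wild type, 51.1, 56.0 and 47.2 CPM on anti-CD40L and 98.1, 111 and 84.6 CPM in KO libraries. The anti-CD40L libraries were the lowest 3 by a wide gap, and the fall was 1.96-fold (log2 fold change -0.97, SE 0.12, adjusted p = 3.54e-04). Slc12a7 moves potassium and chloride out of the cell and takes part in volume control. Slc9a9, the endosomal sodium-proton exchanger, was at 11.02, 11.6 and 12.7 CPM on isotype and at 2.78, 6.8 and 3.63 CPM on anti-CD40L. Its libraries did not overlap between the antibodies either (log2 fold change -1.40, SE 0.28, adjusted p = 0.00874).

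Slc20a1, which takes up phosphate with sodium, was at 128, 114 and 129 CPM on isotype and at 100.2, 103 and 105 CPM on anti-CD40L. The gap between the groups was small but without overlap (log2 fold change -0.27, SE 0.08, adjusted p = 0.0494). Other ion carriers known in activated T cells did not pass. The zinc carrier Slc39a6 was at 64.0, 68.6 and 75.7 CPM on isotype and at 81.6, 87.2 and 95.7 CPM on anti-CD40L, with no overlap (log2 fold change 0.34, adjusted p = 0.0558). Its adjusted p was below 0.05 by DESeq2 (0.0237), without the expression filter (0.0382), with the replicate number as a block (0.0335) and without KO replicate 3 (0.0348). The zinc carrier Slc30a5 had a log2 fold change of 0.19, the sodium-potassium-chloride cotransporter Slc12a2 of 0.23 and the iron carrier Slc11a2 of -0.20, each with an adjusted p above 0.05.

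**Figure D3:**
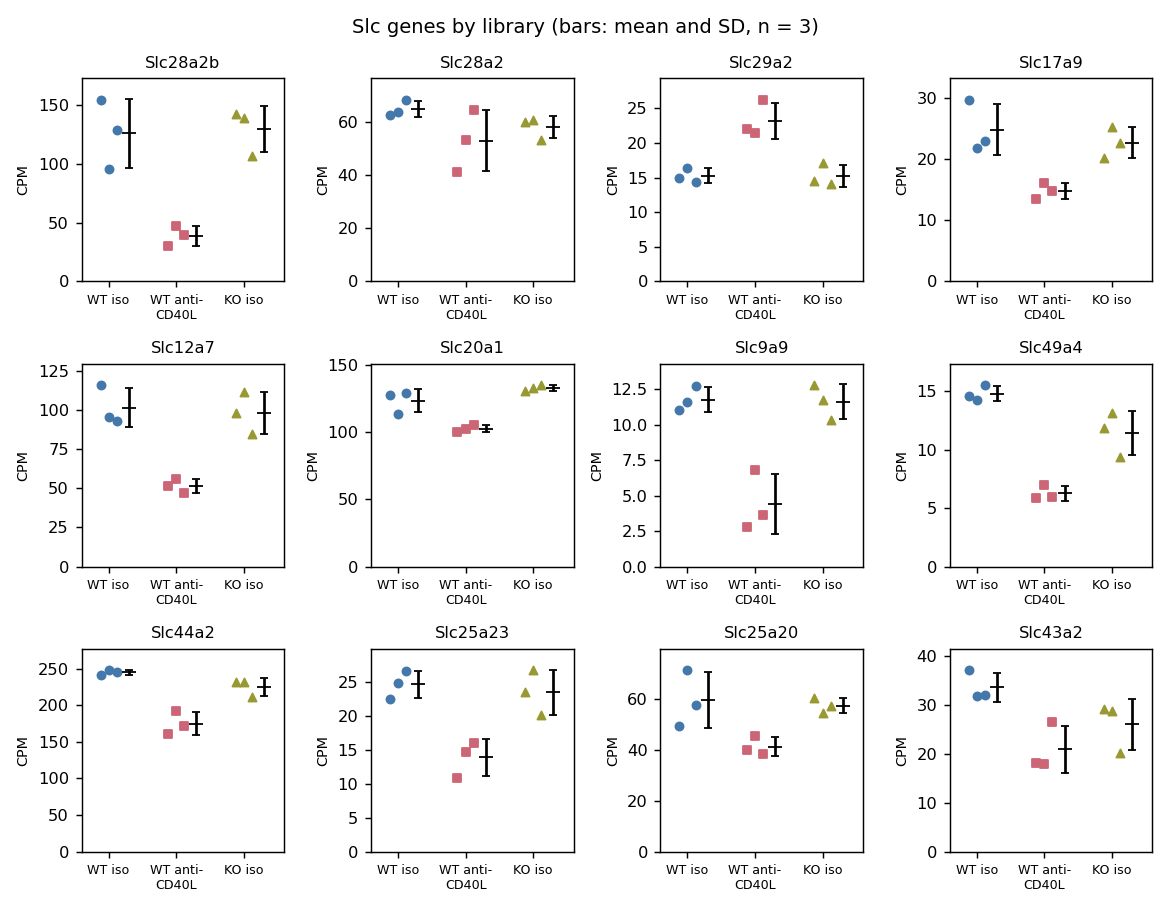
CPM of 12 carriers in each of the 9 libraries, by group, with the mean and SD (n = 3) at the right of each group. The anti-CD40L libraries (squares) lie below all others for Slc28a2b, Slc12a7, Slc9a9 and Slc49a4 and above all others for Slc29a2, while those of Slc28a2 overlap both other groups.

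Of the 38 SLC25 carriers 3 fell on anti-CD40L, while the summed level of the group was 2297 ± 35.3 CPM on isotype and 2452 ± 143 on anti-CD40L. Slc25a23, which exchanges ATP-magnesium for phosphate under control of calcium, was at 22.5, 24.8 and 26.5 CPM on isotype and 10.8, 14.7 and 16.1 CPM on anti-CD40L (log2 fold change -0.84, SE 0.18, adjusted p = 0.00999). Slc25a20, which brings acylcarnitines into mitochondria for fatty acid oxidation, was at 49.6, 71.4 and 57.8 CPM on isotype and 40.1, 45.4 and 38.6 CPM on anti-CD40L (log2 fold change -0.52, SE 0.13, adjusted p = 0.0258). The groups did not overlap, and the isotype libraries spread more widely than those on anti-CD40L. Slc25a38, the glycine carrier needed for heme synthesis, was at 36.9 ± 2.63 CPM on isotype and 27.0 ± 1.42 CPM on anti-CD40L (log2 fold change -0.45, SE 0.12, adjusted p = 0.0314).

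The other SLC25 carriers, the abundant ones among them, did not pass. Slc25a5 was at 721, 769 and 751 CPM on isotype and 824, 798 and 945 CPM on anti-CD40L (log2 fold change 0.19, adjusted p = 0.14). The highest of these was replicate 3, the library that stood apart. Slc25a3 had a log2 fold change of 0.11 and the folate and FAD carrier Slc25a32 of 0.40 (adjusted p = 0.0988 for the last). For Slc25a32 the edgeR adjusted p was below 0.05 without the expression filter (0.0313) and without anti-CD40L replicate 2 (0.0488). Slc25a4, another ADP/ATP exchanger, was at 78.0, 82.8 and 78.2 CPM on isotype and 101, 80.1 and 105 CPM on anti-CD40L, where the groups overlapped (log2 fold change 0.26, adjusted p = 0.135). Without anti-CD40L replicate 2 the edgeR adjusted p of Slc25a4 was 0.0275.

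Of the 23 amino acid carriers 2 fell and none rose, and their summed level was 2802 ± 72.3 CPM on isotype and 2777 ± 93 CPM on anti-CD40L, with overlap. Slc1a5, the most abundant of them, was at 605, 699 and 653 CPM on isotype and 528, 571 and 519 CPM on anti-CD40L. The groups did not overlap, and the fall was 1.21-fold (log2 fold change -0.27, SE 0.08, adjusted p = 0.0468). Slc43a2, a carrier of leucine and other large neutral amino acids, was at 37.1, 31.8 and 32.1 CPM on isotype and 18.2, 18.1 and 26.6 CPM on anti-CD40L (log2 fold change -0.71, SE 0.18, adjusted p = 0.0307).

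The heteromeric exchanger of Slc7a5 and Slc3a2 did not pass in either subunit: Slc7a5 was at 245, 259 and 250.98 CPM on isotype and 269, 260 and 269 CPM on anti-CD40L (log2 fold change 0.08, adjusted p = 0.493). Slc3a2 was at 261 and 264 CPM on average (log2 fold change 0.02, adjusted p = 0.934). The arginine and lysine carrier Slc7a1 was at 350 ± 20.7 and 375 ± 32.7 CPM (adjusted p = 0.483). Slc38a1 had a log2 fold change of 0.13 (adjusted p = 0.34), its relative Slc38a2 of -0.01 (0.955) and Slc7a6, a light chain that exchanges cationic and neutral amino acids, of 0.19 (0.174).

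Of the 13 sugar carriers Slc37a1 alone passed, and of the 4 carboxylate carriers none did. Slc2a1, the main glucose carrier of activated T cells, was at 66.9, 74.6 and 57.5 CPM on isotype and 76.9, 62.2 and 88.7 CPM on anti-CD40L, so the groups overlapped (log2 fold change 0.19, adjusted p = 0.385). Slc2a3, a glucose carrier of high affinity, was at 25, 24.4 and 24.7 CPM on isotype and 20.3, 17.7 and 16.2 CPM on anti-CD40L, without overlap (log2 fold change -0.44, adjusted p = 0.0753). Slc37a1, which exchanges glucose 6-phosphate for phosphate at the endoplasmic reticulum, was at 27.7 ± 2.36 CPM on isotype and 18.7 ± 2.32 CPM on anti-CD40L (log2 fold change -0.56, SE 0.15, adjusted p = 0.0332).

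The lactate and pyruvate carrier Slc16a1 was at 180, 162 and 198 CPM on isotype and 245, 199 and 253 CPM on anti-CD40L. These groups were apart by a narrow margin, and the gene missed the threshold (log2 fold change 0.37, SE 0.11, adjusted p = 0.0573). For Slc16a1 it was below 0.05 by DESeq2 (0.0245), without the expression filter (0.00446), with the replicate number as a block (0.0309) and without anti-CD40L replicate 2 (0.0224), KO replicate 1 (0.0474) or KO replicate 3 (0.0362). The lactate exporter Slc16a3 was low, at 7.62, 11.3 and 8.83 CPM on isotype and 8.69, 10.5 and 5.54 CPM on anti-CD40L (adjusted p = 0.763).

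**Figure D4:**
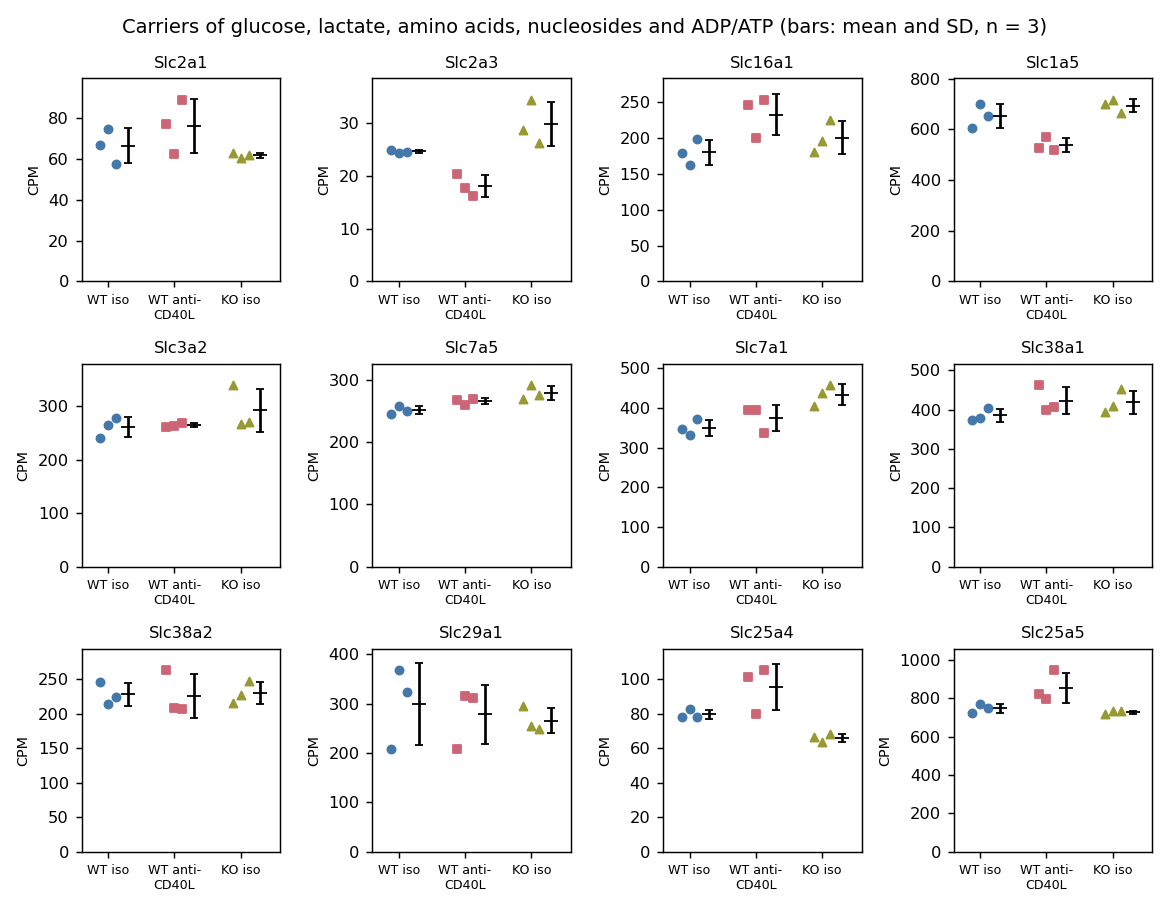
CPM of 12 carriers of glucose, lactate, amino acids, nucleosides and ADP/ATP in each library, by group, with the mean and SD (n = 3). Slc1a5 and Slc2a3 are lowest in the 3 anti-CD40L libraries, whereas those of Slc2a1, Slc3a2, Slc38a2 and Slc29a1 lie within or across the other groups.

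Of the 15 vitamin and lipid carriers 2 fell. Slc44a2, a choline carrier, was at 242, 247 and 245 CPM on isotype and 160, 192 and 172 CPM on anti-CD40L; the isotype libraries were tight and all lay above the others (log2 fold change -0.48, SE 0.08, adjusted p = 0.00296). Slc49a4 was at 14.6, 14.3 and 15.5 CPM on isotype and 5.83, 7.0 and 5.92 CPM on anti-CD40L, a 2.35-fold fall (log2 fold change -1.24, SE 0.20, adjusted p = 0.00176). The folate carrier Slc19a1 had a log2 fold change of 0.04. Slc35b1, a nucleotide carrier of the endoplasmic reticulum, had one of -0.17. The largest rise by fold was that of the vesicular monoamine carrier Slc18a2, which had 1.25, 0.57 and 1.95 CPM on isotype and 3.58, 2.03 and 6.5 CPM on anti-CD40L and did not pass (log2 fold change 1.65, adjusted p = 0.0754); it is named after its values were seen.

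Of the 15 calls, 6 kept an adjusted p below 0.05 in all 16 alternatives, among them Slc28a2b, Slc12a7, Slc44a2, Slc49a4 and Slc9a9. The alternatives include leaving out each library in turn. Each of the other 9 calls was lost when at least 1 library was left out. Calls fell over all genes too. Without isotype replicate 1, 2 or 3 or anti-CD40L replicate 1, between 4.25% and 4.76% of all genes passed, beside 9.37% with all libraries. Without any 1 of the other libraries the share was 6.47% to 11.8%. Slc17a9 was above 0.05 without isotype replicate 1 (0.0752) or anti-CD40L replicate 1 (0.0613), and Slc25a23 without isotype replicate 3 (0.0501) or anti-CD40L replicate 1 (0.0516). Slc29a2 missed the threshold without isotype replicate 1, 2 or 3 (0.095, 0.062 and 0.106) or anti-CD40L replicate 1 (0.0684). For Slc25a20 the adjusted p was 0.119 without isotype replicate 2, 0.0639 without isotype replicate 3, 0.0858 without anti-CD40L replicate 1 and 0.0534 without anti-CD40L replicate 3. Slc43a2, Slc37a1 and Slc25a38 were above 0.05 without any 1 of the isotype libraries (0.0591 to 0.132), without anti-CD40L replicate 1 (0.064 to 0.124) and without KO replicate 2 (0.0502 to 0.0607). The same held for Slc43a2 and Slc25a38 without anti-CD40L replicate 2 (0.0782 and 0.0673) and for Slc37a1 without anti-CD40L replicate 3 (0.0565).

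The calls on the 2 abundant uptake carriers of smallest fold were the least stable. Slc1a5 passed in 6 of the 16 alternatives; it missed the threshold without any 1 of the isotype libraries (0.0641 to 0.183), without anti-CD40L replicate 1 (0.134) or 3 (0.11) and without KO replicate 1 (0.0514) or 2 (0.0779). Slc20a1 passed in 3, and was above 0.05 without isotype replicate 1 (0.172) or 3 (0.177) and without any 1 of the anti-CD40L (0.0633 to 0.152) or KO libraries (0.0507 to 0.0918). Without anti-CD40L replicate 3, the library that stood apart, 16 members were called, 1 higher and 15 lower, beside 8.62% of all genes, and 11 of the 15 calls were among them.

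Cells of the libraries labelled KO were compared with wild-type cells on the same isotype antibody. No member passed at an adjusted p of 0.05, as none of the 11256 genes did (0%, edgeR); DESeq2 also called 0 members, and 0.391% of all genes. At an unadjusted p under 0.05 there were 13 members (7.3%, 8 higher and 5 lower), beside 5.77% of all genes (2.47% higher and 3.3% lower). In 28 members (15.7%) the groups did not overlap, beside 15.2% of all genes. The median log2 fold change over the members was 0.02.

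The 5 members of smallest p are given as values. Slc7a1, which takes up arginine, was at 347, 331 and 372 CPM in wild type and 406, 438 and 457 CPM in KO libraries; the groups did not overlap (log2 fold change 0.31, SE 0.09, adjusted p = 0.54). Slc25a38 was at 34.5, 39.7 and 36.6 CPM in wild type and 31.3, 29.2 and 27.7 CPM in KO libraries (log2 fold change -0.33, adjusted p = 0.717). Slc9a3r1, a scaffold protein and no carrier, was at 138 ± 8.99 and 115 ± 11.4 CPM (adjusted p = 0.777). The mitochondrial iron carrier Slc25a37 was at 45.0 ± 5.14 and 56.0 ± 6.7 CPM with overlap (adjusted p = 0.781), and Slc39a6 at 69.4 ± 5.91 and 83.5 ± 7.98 CPM (adjusted p = 0.806).

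Slc28a2b and the other carriers named here whose fall on anti-CD40L held in all alternatives were not called different between KO and wild-type cells. Their log2 fold change of KO against wild type was 0.03 (SE 0.18) for Slc28a2b, -0.05 (0.12) for Slc12a7, -0.02 (0.26) for Slc9a9 and -0.12 (0.08) for Slc44a2. It was -0.37 (0.18) for Slc49a4, whose KO libraries at 11.8, 13.1 and 9.35 CPM lay between the other groups (adjusted p = 0.877). A difference within these errors was not detectable, and larger ones could go undetected too. That of Slc49a4, at -0.37 with an SE of 0.18, was not called.

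A further contrast set wild-type cells on anti-CD40L against KO cells on isotype antibody, which differ in both genotype and antibody. It shares the anti-CD40L libraries with the contrast on antibody, so the values are given side by side and neither supports the other. In it 18 members (10.1%) passed, 4 higher and 14 lower on anti-CD40L, beside 6.83% of all genes tested (1.79% higher and 5.04% lower). The median over the members was -0.07, beside -0.01 over all genes. Slc28a2b differed by -1.74 (SE 0.19, adjusted p = 1.62e-04), Slc9a9 by -1.38 (0.28, 0.00984), Slc12a7 by -0.92 (0.12, 5.68e-04) and Slc49a4 by -0.86 (0.20, 0.0172), all as log2 fold changes. The values of Slc25a23 (-0.77), Slc17a9 (-0.63), Slc25a20 (-0.47), Slc44a2 (-0.36), Slc1a5 (-0.36) and Slc20a1 (-0.37) also passed, with adjusted p from 0.0115 to 0.048, as did the rise of Slc29a2 (0.60, SE 0.15, 0.032).

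A further 6 called members had not passed in the contrast on antibody. Their mean in wild-type isotype libraries lay between those of the groups compared. That was also so for some members above, such as Slc1a5 and Slc20a1. Slc2a3 was at 20.3, 17.7 and 16.2 CPM on anti-CD40L and 28.8, 34.4 and 26.2 CPM in KO libraries (log2 fold change -0.71, SE 0.14, adjusted p = 0.00925). The magnesium carrier Slc41a1 was at 97.7 ± 9.49 and 130 ± 5.73 CPM (-0.41, 0.09, 0.0164), and Slc5a6, which takes up biotin and pantothenate, at 36.9 ± 3.31 and 49.6 ± 1.8 CPM (-0.42, 0.10, 0.0298). Slc25a4 was higher on anti-CD40L, at 101, 80.1 and 105 CPM against 66.7, 63.7 and 68.3 CPM in KO libraries (0.52, SE 0.10, 0.00833). The copper carrier Slc31a1 was at 66.0 ± 7.7 and 48.9 ± 1.91 CPM (0.43, 0.10, 0.0257). Slc25a1, which exports citrate from mitochondria, was at 62.3, 67.1 and 93.6 CPM and at 49.5, 53.6 and 53.3 CPM (0.50, 0.14, 0.0474). The high value of Slc25a1 was replicate 3, and without that library its log2 fold change was 0.32 (adjusted p = 0.0823).

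In this contrast 5 of the 18 calls kept an adjusted p below 0.05 in all 16 alternatives, among them Slc28a2b, Slc12a7, Slc9a9 and Slc25a4. Leaving out KO replicate 2 ended the other 13 calls (0.0586 to 0.192). Leaving out KO replicate 1 ended 10 of them (0.0513 to 0.142), anti-CD40L replicate 1 also 10 (0.0601 to 0.134), and KO replicate 3 or anti-CD40L replicate 3 ended 4 each (0.058 to 0.0761 and 0.056 to 0.0939). Without isotype replicate 1, 2 or 3, Slc25a1 missed the threshold (0.0516, 0.0674 and 0.0668). Without isotype replicate 1 Slc5a6 (0.0589) did too, with Slc29a2 at the threshold, and without isotype replicate 3 Slc5a6, Slc29a2, Slc17a9 and Slc25a20 did (0.0525 to 0.0774).

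**Figure D5:**
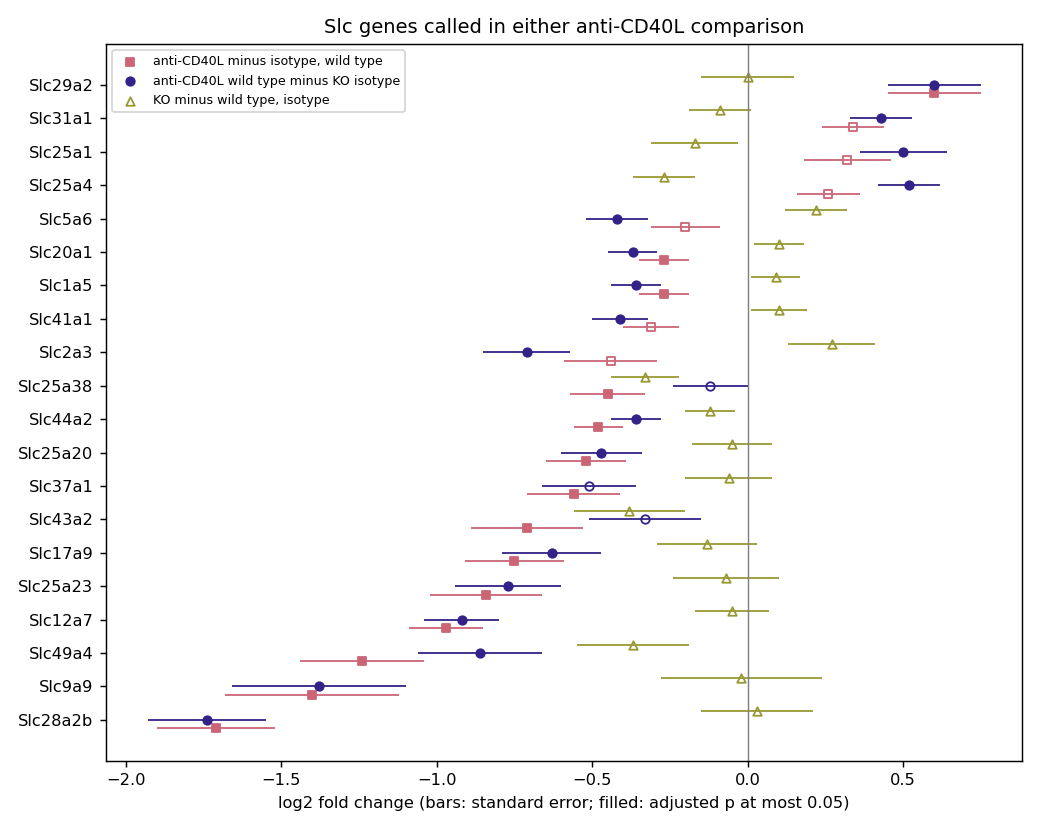
log2 fold change with its standard error of 20 of the 21 members that passed in either contrast with anti-CD40L, in all 3 contrasts; filled symbols passed an adjusted p of 0.05. Slc28a2b lies at -1.71, -1.74 and 0.03, and no symbol of the KO contrast is filled; the contrasts share libraries.

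Genes that act beside the carriers were taken from lists made with earlier results of these data known, so their counts are a description. They stand beside 2.91% of all genes tested that were higher and 6.46% that were lower on anti-CD40L in wild type, with a median log2 fold change of -0.01. Of 18 partner and trafficking genes 3 fell and none rose (median -0.13). Txnip, an arrestin-like protein that removes glucose carriers from the cell surface, was at 190, 144 and 156 CPM on isotype, 57.5, 60.6 and 69.7 CPM on anti-CD40L and 184, 181 and 135 CPM in KO libraries. All 3 anti-CD40L libraries lay below the other 6 (log2 fold change -1.39, SE 0.14, adjusted p = 7.64e-05). Arl6ip5, which holds back the glutamate carrier Slc1a1, fell by 0.56 on the log2 scale (adjusted p = 0.00734) and embigin (Emb), a partner of the lactate carriers, by 0.44 (0.0314). The other lactate carrier partner, basigin (Bsg), was at 216 ± 22.9 and 238 ± 7.38 CPM (adjusted p = 0.351).

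Among 45 tested transporters outside the SLC symbols 6 rose and 8 fell (median 0.06), beside 2.91% and 6.46% of all genes. The transferrin receptor Tfrc, which takes up iron, was at 229, 192 and 213 CPM on isotype and 544, 346 and 324 CPM on anti-CD40L (log2 fold change 0.94, SE 0.20, adjusted p = 0.0112). The mitochondrial serine carrier Sfxn1 rose by 0.41 (adjusted p = 0.0227) and the calcium uniporter Mcu by 0.49 (0.0204). The sterol exporter Abcg1 fell from 22.4 ± 9.83 to 3.12 ± 2.75 CPM (log2 fold change -2.66, SE 0.52, adjusted p = 0.00849), and Atp1b1, a subunit of the sodium pump, from 52.9 ± 6.41 to 33.8 ± 2.6 CPM (adjusted p = 0.00351). Slco3a1, an organic anion carrier, fell from 19.0 ± 3.57 to 10.5 ± 1.39 CPM (adjusted p = 0.0107).

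Of 31 tested enzymes that use the imported nutrients 5 rose and 1 fell (median 0.19), beside 2.91% and 6.46% of all genes. The enzymes with the smallest p among those that rose were Got1, an aspartate aminotransferase, at 80.4 ± 2.09 and 111 ± 20.7 CPM (log2 fold change 0.46, adjusted p = 0.0294), lactate dehydrogenase Ldha, at 906, 920.5 and 833 CPM against 1196, 1032 and 1131 CPM (0.34, 0.0327), and hexokinase Hk2 at 60.5 ± 8.39 and 88.7 ± 19.6 CPM (0.56, 0.0327). Dck, the kinase that phosphorylates deoxycytidine after uptake, fell from 37.2 ± 6.84 to 21.2 ± 4.13 CPM (-0.83, 0.0117). Of 27 tested nutrient-sensing genes 3 rose and 1 fell (median -0.05), beside the same shares of all genes. Myc, a regulator of many carriers in activated T cells, was at 507 ± 19.9 CPM on isotype and 668 ± 72.6 on anti-CD40L (log2 fold change 0.40, adjusted p = 0.0117). The hypoxia-inducible factor Hif1a rose by 0.41 (0.0145) and Fnip1, a partner of folliculin, by 0.61 (0.0332). Sestrin 1 (Sesn1), which senses leucine and restrains mTORC1, fell from 79.9 ± 12.6 to 38.5 ± 4.58 CPM (log2 fold change -1.06, SE 0.13, adjusted p = 2.91e-04).

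In the contrast of KO with wild type no gene of these lists passed, and between 1 and 3 of each list had an unadjusted p under 0.05. Against KO isotype cells, wild-type cells on anti-CD40L had 2 of the 18 partner genes lower, 6 of the 45 other transporters higher and 6 lower, 5 of the 31 enzymes higher and 1 lower, and 1 of the 27 sensing genes higher and 1 lower. Of all genes tested 1.79% were higher and 5.04% lower in this contrast. Txnip differed by -1.42 (SE 0.14, adjusted p = 6.93e-05), Sesn1 by -0.82 (0.13, 0.00186), Tfrc by 0.80 (0.20, 0.0278) and Ldha by 0.43 (0.09, 0.0112). Myc differed by 0.06 (0.09, 0.731), its level in KO libraries being 641 ± 13 CPM.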

How the data were processed

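The deposited table holds expected counts, as the authors made them without normalization, for 42361 RefSeq transcripts in multiples of 0.5 (tested on the table). The submitters' processing notes name CASAVA 1.8.2, HISAT2 2.1.0 and build mm10. Not given in the sources used here: the counting tool, its strand setting and its rule for multiple alignments. The design assumed whole counts; the expected counts were rounded to whole numbers in their place. Symbols came from the RefSeq table (GRCm38.p6) for 42203 transcripts and GENCODE vM21 for 65. The transcript of highest total was kept per gene; the second transcript held over 0.9 of the counts of the first in 58 of the 65 members with several transcripts and many counts.

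edgeR 4.0.16 in R 4.3.3 (filterByExpr by group, TMM scaling, robust quasi-likelihood F test, all 9 libraries, 1 term per group, 11256 genes, Benjamini-Hochberg threshold 0.05) gave the calls. DESeq2 1.42.0, limma 3.58.1 and the settings under the closing section were alternatives. Levels are CPM over TMM-scaled totals, and errors cover counting and library spread only. The code was tested on simulated data.

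The members, substrate groups, lists and motifs were chosen with earlier results of these data known; after member names were seen, Slc4a1ap and Slc7a6os were moved to the group that are not carriers. Named are a list of carriers known in T cells or standing for their group, the called members (values of some genes are not reported here), the 5 of smallest p where none was called, the highest per kilobase and those at the threshold. Of each list, up to 3 called genes per direction of smallest p are named, and a few others (such as Bsg and Slc28a2) for comparison. Correlations of deviations from the group means were between -0.1494 and 0.1803 for libraries of the same replicate number. Between wild-type isotype and anti-CD40L libraries they were 0.1803, 0.0843 and 0.0783, above those of different numbers (-0.1055 to 0.0129). Same-numbered pairs with a KO library were between -0.1494 and 0.0616. Whether the replicate numbers of the titles pair the libraries was not tested.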

Additional observations from a re-analysis of the deposited data

How the results depend on the processing

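The number of members called on anti-CD40L against isotype in wild type (15) was 24 by DESeq2, 23 without the expression filter, 21 by limma with quality weights, and from 6 to 21 when 1 library was left out. The share of all genes called moved too, from 9.37% to 14.5%, 8.64%, 14%, and 4.25% to 11.8%. Against KO isotype cells the number (18) was 31 by limma with quality weights, 10 when only the compared groups were fitted, and from 6 to 22 when 1 library was left out, beside 13%, 4.36%, and 3.03% to 9% of all genes (6.83% as reported). For KO against wild type it was 0 throughout except without the expression filter, where it was 1 (Slc5a3, higher, adjusted p = 0.0275), and it stayed at 0 when 1 library was left out. With the replicate number as a block (replicate block) the numbers were 16, 0 and 14. Of the 15 calls 12 remained, and of the 18 calls 14. The titles do not state a pairing, so the block was kept as an alternative only. Median-ratio scaling, the sum of transcript rows and a member threshold of 5 CPM gave numbers within 1.5 times of these. For single named genes, 1587 values kept direction and side of the threshold. Of the rest, 121 kept direction but lost the call, and 16 kept direction and passed newly. A further 51 changed direction with no call in either fit, and 0 changed direction where a call was made. Depth limits members near 1 CPM, which had few counts in the smallest library; the cause of the differences between settings was not tested.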
